A study of Mus musculus with 20 samples.

Results

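Dyrk1a and 8 relatives, 9 of the 48795 genes in the table, were followed through whole mouse embryonic hearts at E13.5. They were chosen by name, as the DYRK family of kinases (Dyrk1a, Dyrk1b, Dyrk2, Dyrk3 and Dyrk4), 3 kinases of the sister HIPK family (Hipk1, Hipk2 and Hipk3) and Dcaf7, which encodes a WD-repeat protein that binds DYRK1A. RNA was sequenced from 10 WT, 5 Dp1Tyb and 5 Dp1TybDyrk1a+/+/- hearts, which the study treated as biological replicates. Dp1Tyb mice carry a tandem duplication of mouse chromosome 16 from Lipi to Zbtb21, so that Dyrk1a is present in 3 copies, while the other 8 members lie on other chromosomes and stay at 2 copies. Dp1TybDyrk1a+/+/- mice carry the same duplication and a null Dyrk1a allele (Dyrk1atm1Mla) on the duplicated chromosome, which leaves 2 intact copies. The null allele is present in every cell, and all 3 genotypes were on a C57BL/6J background. By the study's methods, Dp1TybDyrk1a+/+/- mice were bred as a strain of their own with their own WT littermates, so the WT hearts may come from both colonies, and strain and genotype cannot be told apart between Dp1Tyb and Dp1TybDyrk1a+/+/- hearts. The comparisons ask how mRNA of Dyrk1a follows its copy number and whether mRNA of its relatives differs with it.

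DYRK kinases phosphorylate a tyrosine of their own activation loop once, while they are being translated, and afterwards phosphorylate serine and threonine residues of other proteins. With no on-off switch known at that loop, the amount of DYRK1A protein is thought to set much of its activity, and the gene is known as dosage-sensitive. DYRK1A slows cell cycle entry through the DREAM complex and cyclin D, and opposes calcineurin signalling by phosphorylating NFAT factors. DYRK1B is its closest relative and promotes a quiescent state. DYRK2 acts on p53 and in protein degradation, DYRK3 dissolves cytoplasmic condensates, and HIPK kinases act on transcription factors and the p53 response.

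The deposited values are log2-transformed normalized counts per gene, and a log2 level below is such a value in 1 heart. A log2 fold change is the difference between 2 genotype means of these values, tested in limma over the 15304 genes whose normalized counts averaged 10 or more. The transformation behind the deposited values is not named and may compress differences, so that folds and normalized counts, which were computed back from the log2 values, hold on the deposited scale and can understate a change at any level. A gene is said to have risen or fallen where its Benjamini-Hochberg adjusted p-value was under 0.05. Of the 9 members, 8 passed the filter and Dyrk4 did not. Read totals were not analysed here and the depth of each library is unknown. Heart A15 (Dp1TybDyrk1a+/+/-) stood apart from its group, with a limma quality weight of 0.0941 where the other 4 hearts of its genotype had 1.10 to 1.52, and WT heart A10 had 0.258. Expression of Xist, an RNA of female cells, was above a log2 level of 10 in 3 of 10 WT, 4 of 5 Dp1Tyb and 1 of 5 Dp1TybDyrk1a+/+/- hearts, and the lanes held the genotypes in unequal numbers. All cardiomyocyte, endothelial, fibroblast, cushion and epicardial markers examined were expressed. Summed normalized counts of 5 cardiomyocyte markers ran from 345171 to 440769 per WT heart.

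RefSeq lists 14 transcription start sites for the 9 members in the build of the files (GRCm38.p6), 3 of them for Dyrk1a and 2 for Dyrk1b. The table holds 1 value per gene, so that all start sites of a gene are summed in it. The 250 bases before the first listed start of Dyrk1a and before both listed starts of Dyrk1b are shown, since these are the members whose levels differed between genotypes. Capitals mark CG dinucleotides, which cluster at the promoters of many widely expressed genes. All are on the plus strand and end 1 base before the start site, at chr16:94569956-94570205, chr7:28179233-28179482 and chr7:28180066-28180315. The annotated genes begin at bases 94569947 (Dyrk1a) and 28179447 (Dyrk1b), so that the Dyrk1a window and the second Dyrk1b window lie inside the gene as annotated, and the first Dyrk1b window reaches into it.
Dyrk1a start 1: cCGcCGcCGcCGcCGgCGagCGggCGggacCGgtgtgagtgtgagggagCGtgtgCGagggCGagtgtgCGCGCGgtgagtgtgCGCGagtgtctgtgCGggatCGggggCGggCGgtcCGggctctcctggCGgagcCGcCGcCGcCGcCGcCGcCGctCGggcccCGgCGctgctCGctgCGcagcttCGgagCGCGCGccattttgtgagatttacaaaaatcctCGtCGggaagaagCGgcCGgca
Dyrk1b start 1: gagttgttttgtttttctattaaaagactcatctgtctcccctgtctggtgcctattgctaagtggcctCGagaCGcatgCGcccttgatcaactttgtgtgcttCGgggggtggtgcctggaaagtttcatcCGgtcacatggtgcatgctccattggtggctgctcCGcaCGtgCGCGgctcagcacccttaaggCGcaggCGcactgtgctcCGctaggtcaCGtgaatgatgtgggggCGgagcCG
Dyrk1b start 2: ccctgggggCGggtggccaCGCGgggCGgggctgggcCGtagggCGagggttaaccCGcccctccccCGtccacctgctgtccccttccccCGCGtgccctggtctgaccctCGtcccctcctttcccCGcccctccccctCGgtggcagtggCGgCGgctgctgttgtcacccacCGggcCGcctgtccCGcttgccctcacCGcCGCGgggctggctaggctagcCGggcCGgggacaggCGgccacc
The Dyrk1a window held 43 CG dinucleotides at 74.4% G and C, a count reached by 0.712% of 32851 RefSeq promoters of the same length. The windows of Dyrk1b held 15 and 24 CG dinucleotides, and the first of these counts is reached by 27.3% of promoters. The median promoter held 6, and 10 of the 14 windows of the members held more. The window of the third listed start of Dyrk1a, at chr16:94611169-94611418, was different, with 2 CG dinucleotides at 27.2% G and C.

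To compare the members with each other, normalized counts were divided by the length of the canonical transcript. In WT hearts Hipk3 had the highest level, with 1235 ± 62.0 normalized counts per kb (SD, n = 10). Hipk1 followed with 821 ± 45.2, Dcaf7 with 581 ± 22.8 and Dyrk1a with 370 ± 11.3 counts per kb. The ranges of the hearts did not overlap between any of these 4 neighbours. Hipk2 was at 171 ± 10.4 and Dyrk2 at 145 ± 5.83 counts per kb, and their hearts did not overlap (156 to 188 and 135 to 155). Dyrk1b was at 72.3 ± 2.41, Dyrk3 at 21.3 ± 1.43 and Dyrk4, which did not pass the filter, at 0.371 counts per kb. The order depends on the transcript taken as the gene's length for Hipk1, whose exons together span 11555 bases while its canonical transcript has 4258. By the union of exons Hipk1 stood at 302 ± 16.7 and Dyrk1a at 276 ± 8.40 counts per kb in WT, with overlapping hearts (277 to 321 and 260 to 288). Dyrk1a was thus the DYRK kinase with the highest level per kb by either length.

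**Figure D1:**
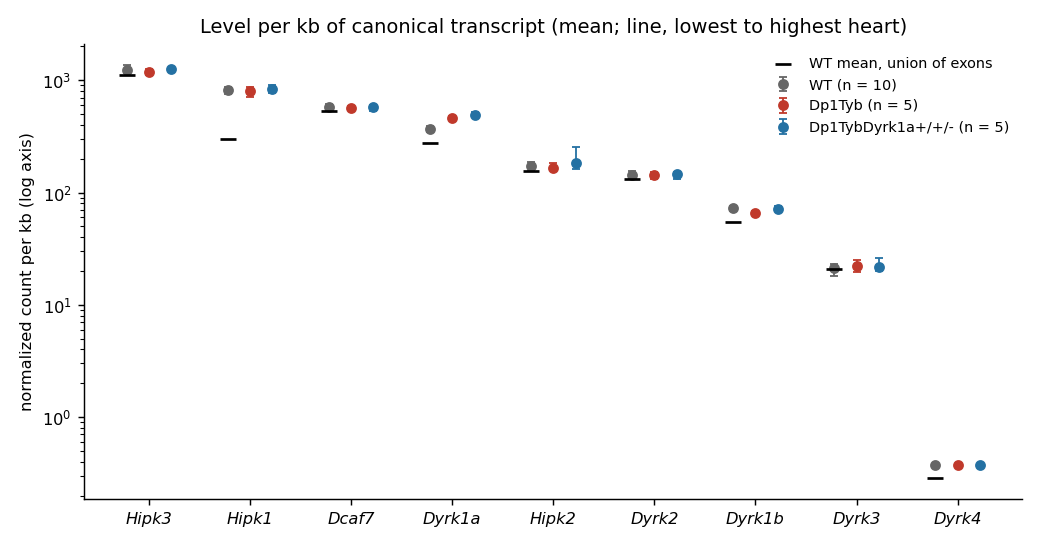
Normalized count per kb of canonical transcript (log axis) of the 9 members in WT, Dp1Tyb and Dp1TybDyrk1a+/+/- hearts, with points for means and lines from the lowest to the highest heart; black dashes give the WT mean by the union of exons. Hipk3 is highest and Dyrk4 lowest in all 3 genotypes, and Dyrk1a is the member whose duplicated genotypes lie farthest from WT.

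Dyrk1a (ENSMUSG00000022897, chr16:94569947-94695519, plus strand) was higher in both genotypes that carry the duplication. WT hearts had log2 levels of 11.28 to 11.43 with a median of 11.36. Dp1Tyb hearts A3, A4, A6, A7 and A12 had log2 levels of 11.65, 11.66, 11.71, 11.75 and 11.67. Dp1TybDyrk1a+/+/- hearts A9, A14, A15, A17 and A18 had log2 levels of 11.74, 11.70, 11.85, 11.78 and 11.75. Every heart with the duplication lay above every WT heart, as 1.51% of all genes tested did for Dp1Tyb and 0.562% for Dp1TybDyrk1a+/+/- hearts, and the highest was A15. In mean normalized counts this was 2643 ± 80.5 (SD, n = 10) in WT, 3303 ± 92.5 (n = 5) in Dp1Tyb and 3476 ± 137 (n = 5) in Dp1TybDyrk1a+/+/- hearts. On this scale Dyrk1a rose 1.25-fold in Dp1Tyb versus WT hearts (log2 fold change 0.32, SE 0.027, adjusted p = 6.2e-08, limma). It rose 1.31-fold in Dp1TybDyrk1a+/+/- versus WT hearts (log2 fold change 0.39, SE 0.027, adjusted p = 2.2e-09). Both comparisons use the same 10 WT hearts. Within lanes 3, 6 and 7 the difference from WT was 0.35, 0.32 and 0.26 for Dp1Tyb and 0.35, 0.38 and 0.38 for Dp1TybDyrk1a+/+/- on the log2 scale, with 1 to 4 hearts of each genotype in a lane. Without A15, Dyrk1a was higher than in WT by 0.37 on the log2 scale in Dp1TybDyrk1a+/+/- hearts.

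Between both genotypes with the duplication, the null allele was not seen as a lower Dyrk1a value. Dp1Tyb hearts were lower than Dp1TybDyrk1a+/+/- hearts by a log2 fold change of -0.07 (SE 0.031, 95% confidence interval -0.14 to -0.0091), which was not past the threshold (adjusted p = 0.21, limma). Heart by heart, 3 of 5 Dp1Tyb hearts lay below every Dp1TybDyrk1a+/+/- heart. Without A15 the log2 fold change was -0.05. Transcripts of the null allele lack a pair of coding exons. By the numbering of the canonical transcript these would be exons 7 and 8, which span 434 of its 7135 bases (6.08%). The value per gene sums reads of all exons and all alleles, so it is no check of the Dp1TybDyrk1a+/+/- label and no measure of intact Dyrk1a mRNA. By mass spectrometry, the study reports more DYRK1A protein in Dp1Tyb than in Dp1TybDyrk1a+/+/- hearts.

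**Figure D2:**
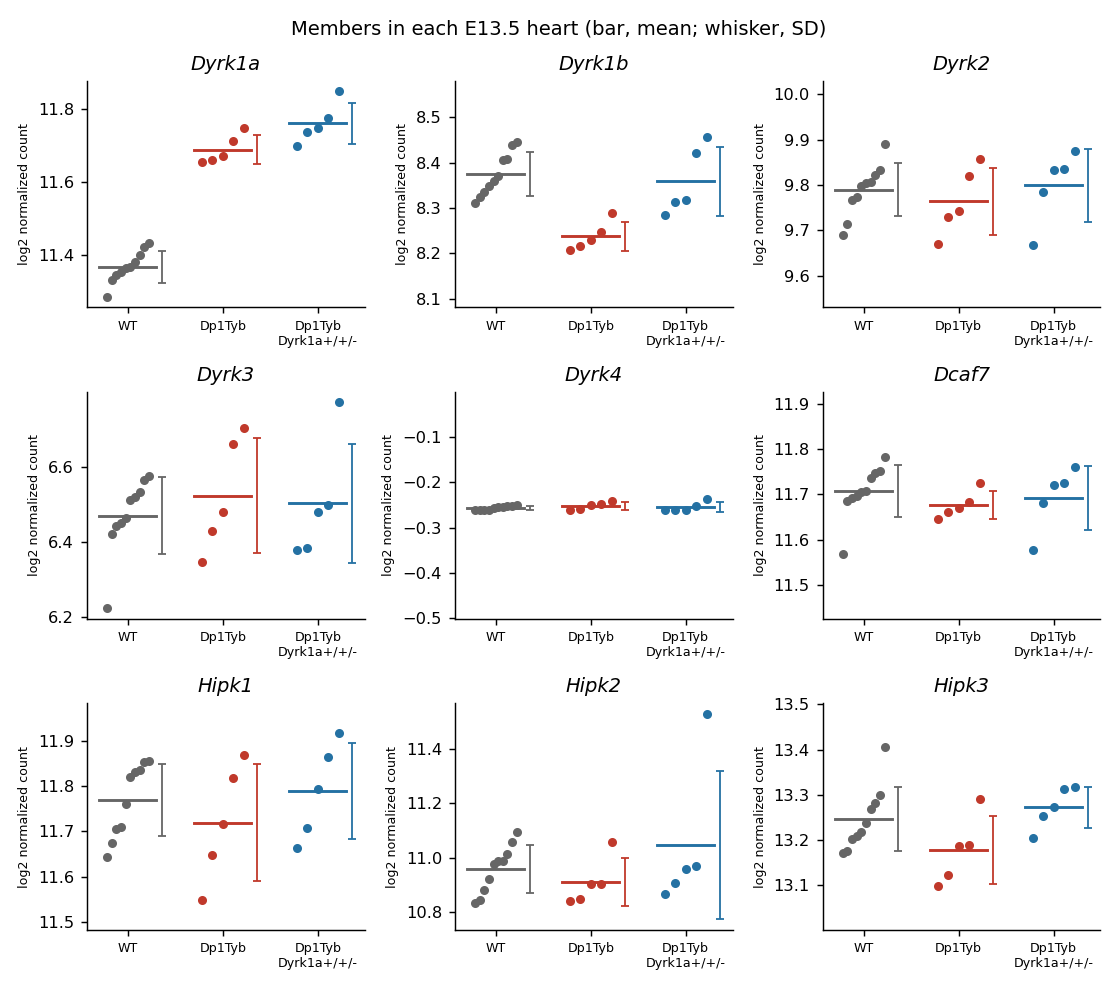
Log2 normalized count of each member in every heart, with the mean (bar) and SD (whisker) of WT (n = 10), Dp1Tyb (n = 5) and Dp1TybDyrk1a+/+/- (n = 5) hearts; the axes differ between panels and each spans at least 0.5. Dyrk1a separates the 10 hearts with the duplication from WT, Dyrk1b is lowest in Dp1Tyb hearts, and heart A15 is the single high point of Hipk2.

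Dyrk1a was compared with the other genes of the duplicated stretch, to see whether its rise was of the usual size. Of the 71 such genes whose normalized counts averaged 100 or more, Dyrk1a included, 65 passed the threshold in Dp1Tyb versus WT and 66 in Dp1TybDyrk1a+/+/- versus WT hearts, beside 3.08% and 0.712% of all genes tested. The log2 fold change of Dyrk1a ranked 38 of 71 in the first comparison and 21 of 71 in the second. The medians of the other 70 genes were 0.33 and 0.37. In each heart, the mean log2 level of these 70 genes was then subtracted from that of Dyrk1a. This difference was 1.56 ± 0.040 (SD, n = 10) in WT, 1.57 ± 0.029 (n = 5) in Dp1Tyb and 1.63 ± 0.062 (n = 5) in Dp1TybDyrk1a+/+/- hearts. For Dp1Tyb hearts the 5 values were 1.54, 1.55, 1.58, 1.62 and 1.56, within the WT range of 1.48 to 1.61 except for A7, which lay just above it. They differed from WT by 0.012 (exact two-sided permutation p = 0.56). For Dp1TybDyrk1a+/+/- hearts A9, A14, A15, A17 and A18 the values were 1.58, 1.58, 1.73, 1.64 and 1.61, and they differed from WT by 0.069 (exact permutation p = 0.014, adjusted over 3 comparisons p = 0.041). Without A15 it was 0.044 (exact permutation p = 0.076), and within lanes it was 0.044 (exact permutation p = 0.12). Against the 5 nearest 3-copy genes on each side of Dyrk1a it was 0.096 (exact permutation p = 0.0020), and against all 3-copy genes tested it was 0.14 (exact permutation p = 0.00033). Against the median of the 70 genes it was -0.011 (exact permutation p = 0.68), and with 1 heart left out 10 of 15 differences from the mean were no longer past the threshold. For Dp1Tyb versus WT hearts the difference was -0.061 against the median in place of the mean of the 70 genes (exact permutation p = 0.0020) and 0.071 against all 3-copy genes tested (exact permutation p = 0.0087). In both comparisons with WT the sign thus changed with the reference taken. The nearest genes and all 3-copy genes tested include some whose normalized counts averaged under 100. The scale may compress differences more in such genes, which was not tested.

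Vps26c, which encodes a subunit of the retriever sorting complex, is the nearest 3-copy gene tested on the centromeric side of Dyrk1a. Vps26c rose in Dp1Tyb (log2 fold change 0.43, SE 0.057, adjusted p = 5.6e-05, limma) and in Dp1TybDyrk1a+/+/- versus WT hearts (0.35, SE 0.057, adjusted p = 0.00095). On the other side Kcnj15, an inward rectifier potassium channel, had log2 fold changes of 0.14 and 0.14 (SE 0.043) that were not past the threshold (adjusted p = 0.074 and 0.21, limma). Neither differed between both genotypes with the duplication past the threshold, at 0.08 and 0.0039.

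**Figure D3:**
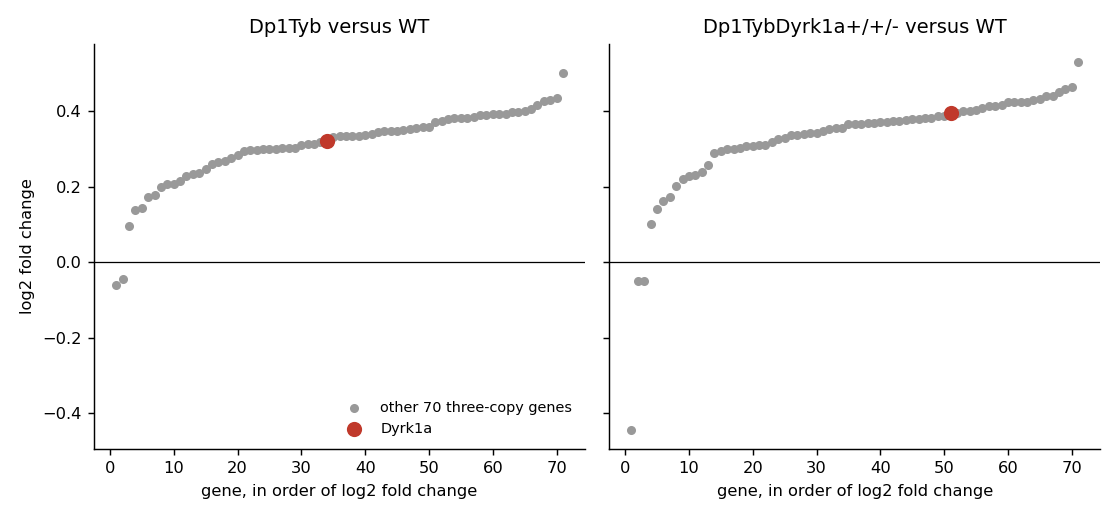
Log2 fold changes of the 71 genes of the duplicated stretch whose normalized counts averaged 100 or more, in order, in Dp1Tyb (left) and Dp1TybDyrk1a+/+/- (right) versus WT hearts. Dyrk1a (red) lies near the middle in the left panel, at rank 38 from the highest, and at rank 21 in the right panel.

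Of the 8 members tested, 2 passed the threshold in Dp1Tyb versus WT hearts (1 up, 1 down), beside 3.08% of all genes tested. In Dp1TybDyrk1a+/+/- versus WT hearts it was 1 member, Dyrk1a, beside 0.712% of all genes. Between Dp1Tyb and Dp1TybDyrk1a+/+/- hearts none of the 8 passed with limma, beside 1.16% of all genes. At an unadjusted p under 0.05 (limma) there were 3, namely Dyrk1a, Dyrk1b and Hipk3. The share of all genes at that unadjusted cut was not counted, so that no excess among the members can be read from it. The median log2 fold change of the 8 members was -0.040, 0.023 and -0.072 in these comparisons, where that of all genes was -0.0019, -0.0030 and 0.0028. Dyrk1a itself is among the 8.

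Dyrk1b (ENSMUSG00000002409, chr7:28179447-28197910, plus strand) was the second member to differ, and it was lower in Dp1Tyb hearts. WT hearts had log2 levels from 8.31 to 8.45 with a median of 8.37. The Dp1Tyb hearts A3, A4, A6, A7 and A12 had log2 levels of 8.29, 8.21, 8.23, 8.22 and 8.25. The Dp1TybDyrk1a+/+/- hearts A9, A14, A15, A17 and A18 had log2 levels of 8.32, 8.42, 8.31, 8.29 and 8.46. All 5 Dp1Tyb hearts lay below all WT hearts, which 1.12% of all genes tested also showed, and 4 of them lay below all Dp1TybDyrk1a+/+/- hearts. Dyrk1b fell in Dp1Tyb versus WT hearts to 0.909 of the WT level (log2 fold change -0.14, SE 0.030, adjusted p = 0.013, limma). In Dp1TybDyrk1a+/+/- versus WT hearts its log2 fold change was -0.016 (95% confidence interval -0.08 to 0.05, adjusted p = 0.88). Between Dp1Tyb and Dp1TybDyrk1a+/+/- hearts it was -0.12 (SE 0.035), a difference that was not past the threshold (adjusted p = 0.082, limma). Without hearts A10 and A15, the hearts with the lowest weights, that last difference was -0.13 with an adjusted p of 0.044 (limma), an alternative chosen after seeing the data. Of 11 alternative fits, 9 left that difference short of the threshold, with an adjusted p up to 0.29 (limma). With 1 heart left out its adjusted p ran from 0.070 to 0.17 (limma).

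Dyrk1b levels also moved with Xist and lane in the WT hearts, where the 3 hearts with Xist above a log2 level of 10 had the 3 lowest values, at 8.31, 8.32 and 8.33. All 3 were sequenced in lane 3, so that Xist and lane can hardly be told apart within WT. The remaining WT heart of that lane, A5, had Xist below 10 and a Dyrk1b level of 8.37. Among hearts with Xist above 10, the 4 Dp1Tyb hearts differed from the 3 WT hearts by -0.083 in mean log2 level of Dyrk1b, and the 1 Dp1TybDyrk1a+/+/- heart was the highest at 8.42. Among hearts with Xist below 10, the 1 Dp1Tyb heart differed from the mean of the 7 WT hearts by -0.17. With the Xist level as a covariate the log2 fold change in Dp1Tyb versus WT hearts was -0.13 (SE 0.033), and it was no longer past the threshold (adjusted p = 0.058, limma). Within lanes 3, 6 and 7 the same difference was -0.083, -0.16 and -0.20. In whole hearts, fewer cells of a type that expresses a gene and less of its RNA per cell cannot be told apart.

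None of the 25 cell-type markers tested, of 27 in 8 lists, passed the threshold in any of the 3 comparisons with limma. At an unadjusted p under 0.05 there were 2 in Dp1Tyb versus WT (Myh7 and Postn), 3 in Dp1TybDyrk1a+/+/- versus WT and 1 in Dp1Tyb versus Dp1TybDyrk1a+/+/- hearts. Of all genes tested, 3.08%, 0.712% and 1.16% passed the threshold in the same order. Their share at the unadjusted cut was not counted. In Dp1Tyb versus WT hearts, where Dyrk1b fell, the cardiomyocyte markers Myh7 and Tnnt2 had log2 fold changes of -0.18 (unadjusted p = 0.011, adjusted p = 0.15, limma) and -0.12 (unadjusted p = 0.050, adjusted p = 0.32), with 3 of 5 and 0 of 5 Dp1Tyb hearts below all WT hearts. Those of Actc1, Myh6 and Nppa were -0.03, 0.04 and 0.06. The fibroblast and cushion markers Postn, Col1a1 and Pdgfra had 0.09, 0.16 and 0.08 in the same comparison (unadjusted p = 0.021, 0.23 and 0.11, limma). The marker with the smallest p-value of all was Tnnt2, cardiac troponin T, at -0.22 (SE 0.064, adjusted p = 0.084, limma) in Dp1Tyb versus Dp1TybDyrk1a+/+/- hearts. All 5 Dp1Tyb hearts lay below all Dp1TybDyrk1a+/+/- hearts in Tnnt2, as in 3.55% of all genes tested. Summed normalized counts of the 5 cardiomyocyte markers ran from 348802 to 397224 in Dp1Tyb and from 373468 to 405161 in Dp1TybDyrk1a+/+/- hearts. Those of 5 erythroid markers ran from 91361 to 208338 and from 76519 to 208792. The study's single-cell RNA sequencing, with a single Dp1Tyb heart, reports lower fractions of ventricular and atrial cardiomyocytes in Dp1Tyb than in WT hearts. Fractions of fibroblasts and vascular endothelial cells were reported as higher. By the study, the cardiomyocyte and fibroblast changes were reversed in Dp1TybDyrk1a+/+/- hearts. The part of cell composition in the Dyrk1b difference was not tested. In the other lists the gene with the smallest p-value was Postn for fibroblasts and cushion cells (0.09, Dp1Tyb versus WT). In Dp1TybDyrk1a+/+/- versus WT hearts these were Pecam1 for endothelium (0.07), C1qa for macrophages (-0.09), Wt1 for epicardium (0.07) and Nkx2-1 for lung (-0.12). For erythroid and liver cells these were Hbb-bt (0.39) and Afp (0.13) in Dp1Tyb versus Dp1TybDyrk1a+/+/- hearts. Their adjusted p-values ran from 0.21 for Postn to 0.69 for Wt1 (limma).

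**Figure D4:**
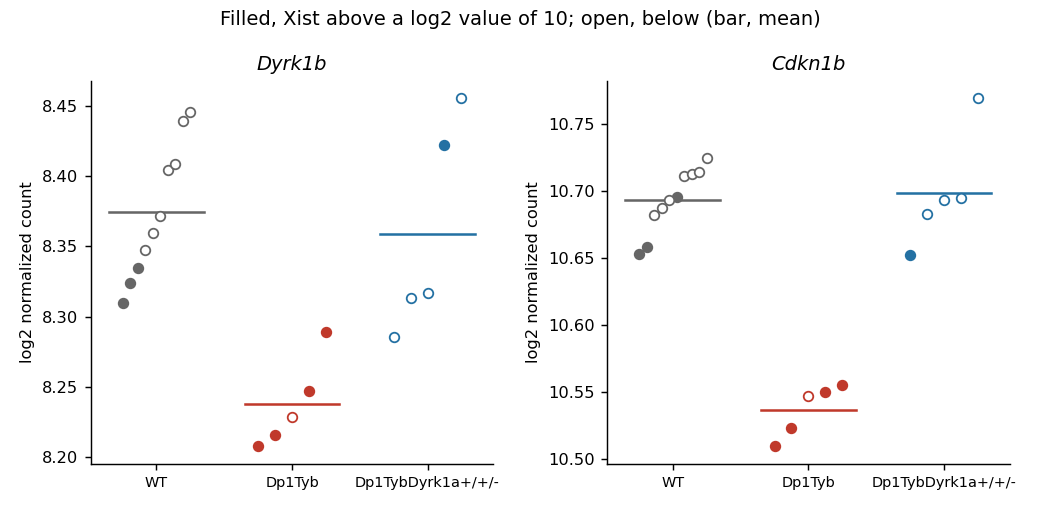
Log2 normalized count of Dyrk1b (left) and Cdkn1b (right) in every heart by genotype, filled where Xist was above a log2 level of 10 and open where it was below, with bars for means. All 5 Dp1Tyb hearts lie below all WT hearts for both genes, and the 3 filled WT hearts are the lowest of their group for Dyrk1b.

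The share of Dyrk1a in DYRK mRNA was higher with the duplication. Shares and ratios are per kb of canonical transcript unless another length is named. Dyrk1a made up 60.8% ± 0.600 (SD, n = 10) of the summed DYRK level per kb in WT hearts, 66.8% ± 0.276 (n = 5) in Dp1Tyb and 67.0% ± 1.62 (n = 5) in Dp1TybDyrk1a+/+/- hearts. The WT range of 59.9% to 61.8% did not meet the ranges of the other genotypes, which began at 66.4% and 65.7%. Dyrk1a was 5.13 ± 0.122 times the level of Dyrk1b per kb in WT, 7.05 ± 0.307 times in Dp1Tyb and 6.83 ± 0.547 times in Dp1TybDyrk1a+/+/- hearts. Against Dcaf7, which DYRK1A protein binds, Dyrk1a mRNA stood at 0.639 ± 0.032 per kb in WT, 0.815 ± 0.036 in Dp1Tyb and 0.850 ± 0.072 in Dp1TybDyrk1a+/+/- hearts. By the union of exons the shares were 57.1%, 63.2% and 63.5% in WT, Dp1Tyb and Dp1TybDyrk1a+/+/- hearts. The ratios to Dcaf7 were then 0.514, 0.656 and 0.684. These shares and ratios follow from the levels of the genes and were not tested apart.

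The class II kinases did not differ past the threshold in any comparison. Dyrk2 (ENSMUSG00000028630) had log2 levels of 9.69 to 9.89 in WT, 9.67 to 9.86 in Dp1Tyb and 9.67 to 9.88 in Dp1TybDyrk1a+/+/- hearts, so that the ranges almost coincided. Its log2 fold change was -0.03 in Dp1Tyb versus WT hearts (95% confidence interval -0.10 to 0.05, adjusted p = 0.80, limma). Dyrk3 (ENSMUSG00000016526) had log2 levels of 6.22 to 6.57, 6.35 to 6.70 and 6.38 to 6.77 in the same order, and its 3 log2 fold changes lay between 0.02 and 0.05. With an SD within genotypes of 0.13, Dyrk3 varied more than 90.2% of the 500 genes nearest to it in level. The interval of its log2 fold change in Dp1Tyb versus WT hearts, -0.08 to 0.19, is wider than that of Dyrk2. Dyrk4 (ENSMUSG00000030345) was at a mean normalized count of 0.838 and was hardly expressed. Its log2 levels lay between -0.26 and -0.24 in all 20 hearts, a spread far under that of the other members. The scale may compress differences in such weakly expressed genes, so this spread is not read as steady expression. No comparison was made for Dyrk4.

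Dcaf7 (ENSMUSG00000049354) was close to level across genotypes. Its log2 levels ran from 11.57 to 11.78 in WT, from 11.65 to 11.73 in Dp1Tyb and from 11.58 to 11.76 in Dp1TybDyrk1a+/+/- hearts, with the 2 low values in A10 and A15. The log2 fold changes were -0.030, -0.015 and -0.016, with 95% confidence intervals that reached no farther than -0.10 and 0.06 (adjusted p = 0.71, 0.89 and 0.84, limma).

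The 3 HIPK kinases had log2 fold changes below 0 in Dp1Tyb versus WT hearts and above 0 in Dp1TybDyrk1a+/+/- versus WT hearts, and none passed the threshold. Each of these positive values turned negative under at least 1 alternative, as when A15 was left out for Hipk1 and Hipk2 and with lane as a covariate for Hipk3. Hipk3 (ENSMUSG00000027177) had log2 levels of 13.17 to 13.41 in WT with a median of 13.23. In Dp1Tyb hearts A3, A4, A6, A7 and A12 the log2 levels of Hipk3 were 13.10, 13.12, 13.19, 13.29 and 13.19, of which 2 lay below all WT hearts. In Dp1TybDyrk1a+/+/- hearts A9, A14, A15, A17 and A18 they were 13.27, 13.20, 13.25, 13.31 and 13.32. The difference between Dp1Tyb and Dp1TybDyrk1a+/+/- hearts was -0.09 (95% confidence interval -0.18 to -0.0060), which was not past the threshold (adjusted p = 0.24, limma). Hipk1 (ENSMUSG00000008730) varied from 11.55 to 11.87 within Dp1Tyb hearts alone, which spans the WT range of 11.64 to 11.86 on both sides. Hipk2 (ENSMUSG00000061436) had log2 levels of 10.83 to 11.09 in WT and 10.84 to 11.06 in Dp1Tyb hearts. In Dp1TybDyrk1a+/+/- hearts A9, A14, A17 and A18 its log2 levels were 10.87, 10.91, 10.96 and 10.97, while A15 had 11.53. Its log2 fold change in Dp1TybDyrk1a+/+/- versus WT hearts was 0.09 (adjusted p = 0.73, limma) with A15 and -0.03 (adjusted p = 0.79) without it.

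**Figure D5:**
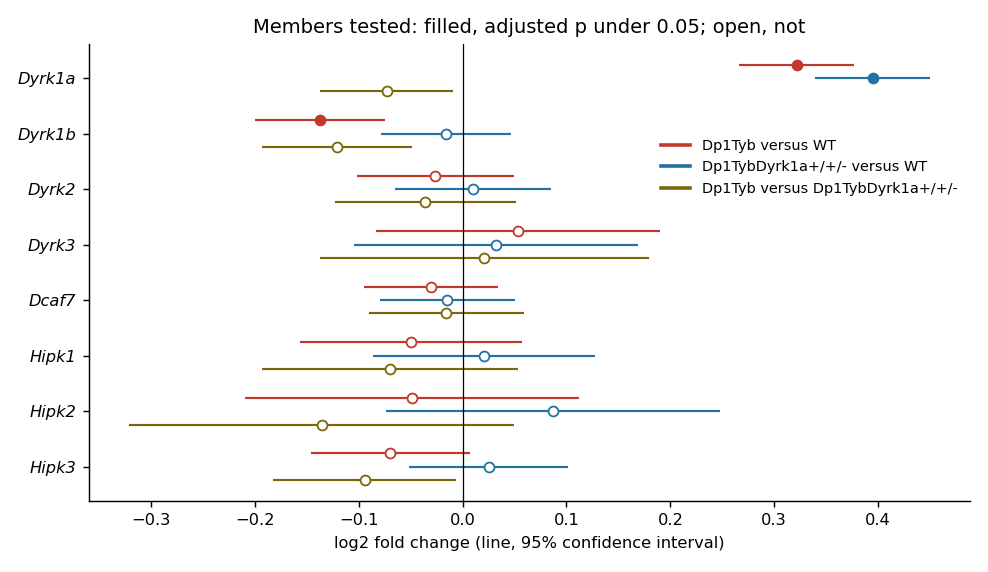
Log2 fold change (points) and 95% confidence interval (lines) of the 8 members tested in the 3 comparisons, filled where the adjusted p-value was under 0.05. Dyrk1a is filled in both comparisons with WT, at 0.32 and 0.39, Dyrk1b is filled in Dp1Tyb versus WT at -0.14, and the other points are open.

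Within genotypes, Dyrk1a and the HIPK kinases varied together from heart to heart. Deviations from the genotype mean over the 20 hearts gave Pearson's r with Dyrk1a of 0.76 for Hipk1, 0.66 for Hipk2 and 0.66 for Hipk3 (Spearman's rho 0.78, 0.56 and 0.71). For Dyrk3, Dyrk2 and Dyrk1b r was 0.40, 0.16 and 0.050, and for Dcaf7 it was -0.30. Without A19 and A15, the hearts farthest from their means in Dyrk1a, r was 0.70, 0.69 and 0.78 for the HIPK kinases. That of Dyrk3 moved to 0.52, that of Dyrk2 to 0.51 and that of Dcaf7 to -0.15. Without A15 alone r was 0.73 for Hipk1, 0.54 for Hipk2 and 0.79 for Hipk3, beside 0.49 for Dyrk2 and 0.48 for Dyrk3. Of 11392 genes compared over all 20 hearts, 0.369% had an r with Dyrk1a at least as high as Hipk1, and 2.62% and 2.69% as high as Hipk2 and Hipk3. The genes most like Dyrk1a were Dmxl1 (r 0.87), Tsc22d2 (0.84), Kcnh7 (0.84), Pakap (0.83) and Prox1 (0.82), and none of these lies in the duplicated stretch. These are descriptions over hearts that share normalization and, in part, lanes, and r was not adjusted for lane. In WT, the mean levels of Dyrk1a and all 3 HIPK kinases were highest in lane 7. So were those of Dyrk1b, Dyrk3 and Dcaf7.

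Genes whose proteins work with the members were taken as lists. None of 9 other kinases near the DYRK branch (Hipk4, Prpf4b, the CLK and the SR protein kinases) rose or fell in any comparison with limma, and the smallest p-value was that of Prpf4b in Dp1Tyb versus Dp1TybDyrk1a+/+/- hearts (-0.10, unadjusted p = 0.0070, adjusted p = 0.12). None of 11 genes of other DYRK1A-binding proteins did so, where the smallest p-value was that of Lzts2 in the same comparison (0.18, unadjusted p = 0.0042, adjusted p = 0.10, limma). At an unadjusted p under 0.05 there were 1, 1 and 3 kinases and 1, 2 and 2 binding proteins, taking first the comparison of Dp1Tyb with WT, then of Dp1TybDyrk1a+/+/- with WT, then of both genotypes with the duplication. None of 22 genes of partners and substrates of DYRK2, DYRK3 and the HIPK kinases rose or fell. They were led by the stress gene Trp53inp1 in Dp1Tyb versus Dp1TybDyrk1a+/+/- hearts (-0.15, unadjusted p = 0.0011, adjusted p = 0.061, limma). In the same order, 4, 1 and 2 of them had an unadjusted p under 0.05. Of all genes tested, 3.08%, 0.712% and 1.16% passed the threshold in these comparisons. The share of all genes at an unadjusted p under 0.05 was not counted, so the lists cannot be set against it.

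Among 27 genes of DYRK1A substrates, 3 rose and 2 fell in Dp1Tyb versus WT hearts, 3 rose in Dp1TybDyrk1a+/+/- versus WT hearts and 1 fell in Dp1Tyb versus Dp1TybDyrk1a+/+/- hearts. All genes tested gave 1.81% up and 1.27% down, 0.627% up, and 0.738% down. The median log2 fold change of the list was 0.019, 0.0029 and -0.020. The 3 that rose, App, Synj1 and Rcan1, are themselves 3-copy genes. App, the amyloid precursor, rose by log2 fold changes of 0.44 and 0.44 in Dp1Tyb and Dp1TybDyrk1a+/+/- versus WT hearts (adjusted p = 4.9e-11 and 3.8e-11, limma). Synj1, a phosphatase of synaptic vesicle uncoating, rose by 0.33 and 0.41 (adjusted p = 5.8e-08 and 1.8e-09, limma). Rcan1, an inhibitor of calcineurin, rose by 0.34 and 0.38 (adjusted p = 0.00012 and 2.3e-05, limma).

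The 2 substrate genes that fell were Cdkn1b and Sirt1, both at 2 copies. Cdkn1b encodes the cell cycle inhibitor p27, which DYRK1A and DYRK1B phosphorylate and so stabilise. WT hearts had log2 levels of Cdkn1b of 10.65 to 10.72 with a median of 10.69. Dp1Tyb hearts A3, A4, A6, A7 and A12 had log2 levels of 10.52, 10.56, 10.55, 10.51 and 10.55, and Dp1TybDyrk1a+/+/- hearts A9, A14, A15, A17 and A18 had 10.68, 10.65, 10.77, 10.69 and 10.69. The Dp1Tyb hearts lay below every heart of the other genotypes, which 1.12% of all genes showed against WT and 3.55% against Dp1TybDyrk1a+/+/- hearts. Cdkn1b fell by a log2 fold change of -0.16 in Dp1Tyb versus WT hearts (SE 0.019, adjusted p = 2.4e-05, limma) and of -0.16 versus Dp1TybDyrk1a+/+/- hearts (SE 0.022, adjusted p = 0.0017). The second call was lost where only these 10 hearts entered the fit (-0.16, adjusted p = 0.096), and it held in the other alternatives and with each of these 10 hearts left out in turn. In Dp1TybDyrk1a+/+/- versus WT hearts it was 0.0052 (adjusted p = 0.94, limma). Within lanes 3, 6 and 7 the difference of Dp1Tyb from WT hearts was -0.16, -0.16 and -0.13. Among hearts with Xist above a log2 level of 10 it was -0.13. Sirt1, a deacetylase of p53, fell in Dp1Tyb versus WT hearts (-0.092, SE 0.023, adjusted p = 0.026, limma), a call lost with Xist as a covariate (adjusted p = 0.061) and without Dp1Tyb replicate 1, 2 or 4 (-0.083, -0.094 and -0.079).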

How the data were processed

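Whole E13.5 hearts were snap frozen, RNA was extracted with an RNeasy Mini kit, and KAPA mRNA HyperPrep libraries were sequenced on an Illumina HiSeq. For all 20 hearts, 1 table was deposited by the authors, which holds normalized counts on a log2 scale per Ensembl gene, of which 19473 genes were at 0 throughout. The submitters' processing notes name GRCm38, Trimmomatic 0.36, STAR 2.5.2a, RSEM 1.2.31 and DESeq2, without their roles. The log2 transformation and the strand setting are not given in the sources used here. Weakly expressed genes vary little between hearts, as in a regularized log2, so that fold changes and normalized counts computed back from these values may be compressed. How far this reaches abundant genes was not tested. Versus WT, the 70 3-copy genes other than Dyrk1a that averaged 100 or more had median log2 fold changes of 0.33 in Dp1Tyb hearts. In Dp1TybDyrk1a+/+/- hearts their median was 0.37. For Dp1Tyb hearts the study reports a larger rise of the 3-copy genes. Depth is unknown, and precision rests on the spread between hearts.

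Samples were grouped by the genotype label, and hearts were named by library number. The study compared mutants with littermates. Neither litters nor colonies are in the labels, so all 10 WT hearts were used throughout. Genes whose normalized counts averaged 10 or more (15304) entered 1 limma model over the 20 hearts with a mean for each genotype and trended eBayes (limma version 3.58.1, R version 4.3.3), as counts for DESeq2 were not used here. The fit was tested on simulated data. Names came from GENCODE M39 (44565 genes matched, 4230 did not), coordinates and promoters from RefSeq GRCm38.p6, and transcript lengths from GENCODE M39. Reads shared between relatives were treated as deposited. Differences of Dyrk1a from other 3-copy genes were compared by exact permutation tests in Python 3.11.15 with scipy 1.17.1. Named genes were the members, the genes past the threshold of each list (otherwise that with the smallest p-value), the 5 genes most correlated with Dyrk1a and its nearest 3-copy neighbours. The members and lists were chosen with earlier results of these data known. Alternatives covered filters, normalization, limma settings, lane, Xist and hearts left out.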

Additional observations from a re-analysis of the deposited data

Results flagged for a closer look

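Within 48 groups of 5 or 10 hearts examined (14 named genes and 2 summaries of the 3-copy genes in 3 genotypes), 3 held a heart far from the others by Dixon's 95% criterion, where chance flags about 1 in 20 groups. Hipk2 in the Dp1TybDyrk1a+/+/- heart A15 was at a log2 level of 11.53, where the nearest other heart had 10.97, and the gap was 0.843 of the range. Dyrk3 in the WT heart A2 was at 6.22, with the next lowest heart at 6.42. Dcaf7 in the WT heart A10 was at 11.57, with the next lowest heart at 11.68. A15 and A10 also had the lowest quality weights of the 20 hearts, at 0.0941 and 0.258, and the weight of A2 was 1.42.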

How the results depend on the processing

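Dyrk1a rose versus WT in both comparisons under all 11 alternatives fitted with limma and with each of the 15 hearts compared left out in turn, at log2 fold changes of 0.31 to 0.35 in Dp1Tyb and 0.37 to 0.41 in Dp1TybDyrk1a+/+/- hearts. Dyrk1b fell in Dp1Tyb versus WT hearts in 10 of these 11 alternatives and with each of the 15 hearts compared left out in turn (-0.15 to -0.13, adjusted p up to 0.0496). With Xist as a covariate 1 member passed in place of 2, as Dyrk1b was at -0.13 (adjusted p = 0.058). Between Dp1Tyb and Dp1TybDyrk1a+/+/- hearts 1 member passed in place of 0, Dyrk1b, with weights per heart (-0.13, adjusted p = 0.023) and without A10 and A15 (-0.13, adjusted p = 0.044). In the other 9 alternatives of that comparison Dyrk1b was not past the threshold (adjusted p up to 0.29, limma). Over all genes, the 178 calls of that comparison became 3 with only the hearts compared, 12 with Xist, 29 with lane, 76 without a filter, 273 at a mean of 100 or more, 606 without A10 and A15, 1247 with weights and 30 to 302 with 1 heart left out. The 471 of Dp1Tyb versus WT became 245 with Xist, 779 with only the hearts compared, 1178 without A10 and A15, 1422 with weights and 266 to 483 with 1 heart left out, and the 109 of Dp1TybDyrk1a+/+/- versus WT became 212 without A10 and A15 and 341 with weights. Cdkn1b lost its call between Dp1Tyb and Dp1TybDyrk1a+/+/- hearts with only those hearts in the fit, and Sirt1 in Dp1Tyb versus WT with Xist. The cause of these shifts was not tested.

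Dyrk1a relative to other 3-copy genes in Dp1Tyb versus WT hearts moved to 0.071 against all those tested and to -0.061 against their median. In Dp1TybDyrk1a+/+/- versus WT hearts it moved to -0.011 against the median and to 0.044 within lanes. With 1 heart left out it ran from 0.044 to 0.081, where 10 of 15 runs were no longer past the threshold after adjustment over 3 comparisons.

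Values near 0 changed sign without passing the threshold. In Dp1TybDyrk1a+/+/- versus WT hearts these were, with lane as a covariate, Dyrk3 (-0.00011), Hipk1 (-0.019), Hipk3 (-0.0038) and Cdkn1b (-0.0012), with weights Dcaf7 (0.0023), Hipk1 (-0.0087) and Cdkn1b (-0.011), with quantile normalization Hipk3 (-0.0082) and Cdkn1b (-0.0059), and without A10 and A15 Hipk1 (-0.019), Hipk2 (-0.019) and Cdkn1b (-0.010). With 1 heart left out the same comparison gave -0.040 to 0.0022 for Dyrk1b, -0.0092 to 0.043 for Dyrk2, -0.035 to 0.063 for Dyrk3, -0.031 to 0.014 for Dcaf7, -0.012 to 0.052 for Hipk1, -0.034 to 0.13 for Hipk2 and -0.012 to 0.017 for Cdkn1b. Between Dp1Tyb and Dp1TybDyrk1a+/+/- hearts Dyrk3 was at -0.00029 with weights and from -0.024 to 0.088 with 1 heart left out, and Dcaf7 at 0.018 with quantile normalization and from -0.045 to 0.0010 with 1 heart left out. No paired analysis was possible because the labels carry no number shared between genotypes, and replicate numbers here only name hearts. The union of exons as length, the fit without A10 and A15 and the values within Xist classes were chosen after seeing the data.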
